A study of Mus musculus with 6 samples.

Results

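Chromatin accessibility was described at the genes of the oestrogen-related receptors (Esrra, Esrrb and Esrrg), of the PGC-1 coactivators (Ppargc1a and Ppargc1b) and of 3 partners of this circuit (Perm1, Tfam and Nrf1) in mouse thigh muscle lacking Prr14. All peaks whose annotated gene name was 1 of these 8 genes were taken, which gave 96 of 75134 peaks. Of these, 92 passed the filter on low counts and were tested, among 73896 tested peaks in all. The 4 peaks left out, 1 each at Esrrg, Ppargc1a, Ppargc1b and Nrf1, had at most 28 counts in a Prr14-KO library and at most 33 in a Prr14-WT library. The 8 genes were chosen with the comparison of Prr14-KO with Prr14-WT at these peaks already known. The adjusted p-values below come from 1 fit over all peaks and place each peak within the whole table, and they are not independent evidence about the gene list.

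The study used ATAC-seq, in which the Tn5 transposase cuts accessible DNA and inserts sequencing adapters, on nuclei from frozen quadriceps femoris. It compared 3 libraries of genotype Prr14-KO with 3 of genotype Prr14-WT. PRR14 is a protein of the nuclear lamina that holds heterochromatin at the nuclear edge. The sources used here do not give the mice's age, sex or strain, nor which part of Prr14 was removed, nor whether a library stands for 1 animal, and p-values therefore rest on the spread of libraries, part of which may be technical.

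Counts in peaks summed to between 9346968 and 12061822 in the Prr14-KO libraries and to between 7608514 and 11575061 in the Prr14-WT libraries. Levels are counts per 1000000 in peaks (CPM) scaled with TMM factors, and library values are given in the order of replicates 4, 5 and 7 for Prr14-KO and 3, 4 and 8 for Prr14-WT. The tissue label was checked against marker genes. All 9 markers of skeletal fibres (Acta1, Ckm, Des, Myh4, Myh1, Mylpf, Tnnt3, Ryr1 and Cacna1s) had a tested promoter peak, and their promoter signal summed to 817 to 893 CPM in Prr14-KO and 744 to 1134 CPM in Prr14-WT. In whole muscle, a lower share of nuclei of a type and a lower signal per nucleus cannot be told apart.

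Oestrogen-related receptors are orphan nuclear receptors that bind DNA without a known natural steroid ligand and switch on genes of mitochondrial respiration and fatty acid oxidation. Their activity depends on the coactivators PGC-1alpha (Ppargc1a) and PGC-1beta (Ppargc1b), which do not bind DNA themselves, and in muscle PGC-1alpha rises with exercise and cold. PERM1 is a muscle regulator induced by PGC-1 and oestrogen-related receptors, NRF1 is a transcription factor of nuclear genes for mitochondrial proteins, and TFAM packages and transcribes mitochondrial DNA.

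The start-site windows that the results turn on are shown first, each of 300 bases, from RefSeq on build GRCm38.p6, 5′ to 3′ in the direction of the gene. The pairs at Esrrb and Esrrg are shown because the first and the internal start of these genes lay in separate peaks, the Ppargc1a window because it is the alternative start upstream of the canonical one, and the Tfam window because it held a motif match. Capitals mark the motif match in the windows of the first Esrrg start and of Tfam, and the bases after the start site in the other 4 windows.
Esrrb first start, chr12:86360867-86361166, plus strand: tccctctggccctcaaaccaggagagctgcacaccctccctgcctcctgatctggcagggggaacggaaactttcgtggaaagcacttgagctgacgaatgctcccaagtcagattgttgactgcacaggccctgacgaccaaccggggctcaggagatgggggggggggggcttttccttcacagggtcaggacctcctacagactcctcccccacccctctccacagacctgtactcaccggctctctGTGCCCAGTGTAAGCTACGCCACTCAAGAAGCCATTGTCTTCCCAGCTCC
Esrrb internal start, chr12:86421394-86421693, plus strand: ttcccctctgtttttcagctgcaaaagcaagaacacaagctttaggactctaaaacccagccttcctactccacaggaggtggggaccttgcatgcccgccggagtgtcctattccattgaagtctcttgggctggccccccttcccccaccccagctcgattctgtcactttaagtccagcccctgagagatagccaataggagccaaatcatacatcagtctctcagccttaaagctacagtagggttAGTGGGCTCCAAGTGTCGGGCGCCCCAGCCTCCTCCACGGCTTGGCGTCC
Esrrg first start, chr1:187608756-187609055, plus strand: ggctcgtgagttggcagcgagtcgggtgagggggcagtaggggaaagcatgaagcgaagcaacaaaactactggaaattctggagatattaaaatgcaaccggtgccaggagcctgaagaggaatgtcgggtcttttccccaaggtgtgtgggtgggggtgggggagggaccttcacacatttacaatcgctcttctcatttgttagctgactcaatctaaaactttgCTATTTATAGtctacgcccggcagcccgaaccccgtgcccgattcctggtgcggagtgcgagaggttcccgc
Esrrg internal start, chr1:187997577-187997876, plus strand: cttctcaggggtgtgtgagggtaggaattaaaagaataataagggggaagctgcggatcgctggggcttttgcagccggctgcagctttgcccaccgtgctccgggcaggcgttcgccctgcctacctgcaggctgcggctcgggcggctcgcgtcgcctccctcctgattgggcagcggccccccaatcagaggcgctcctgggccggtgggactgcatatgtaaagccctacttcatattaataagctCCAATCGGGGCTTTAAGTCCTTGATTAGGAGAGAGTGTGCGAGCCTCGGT
Ppargc1a upstream start, chr5:51567676-51567975, minus strand: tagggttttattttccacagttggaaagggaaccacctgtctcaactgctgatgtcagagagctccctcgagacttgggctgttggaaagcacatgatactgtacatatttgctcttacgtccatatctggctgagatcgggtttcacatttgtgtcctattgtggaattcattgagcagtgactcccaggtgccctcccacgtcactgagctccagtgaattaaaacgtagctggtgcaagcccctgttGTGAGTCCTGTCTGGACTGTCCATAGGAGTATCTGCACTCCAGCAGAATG
Tfam start, chr10:71237995-71238294, minus strand: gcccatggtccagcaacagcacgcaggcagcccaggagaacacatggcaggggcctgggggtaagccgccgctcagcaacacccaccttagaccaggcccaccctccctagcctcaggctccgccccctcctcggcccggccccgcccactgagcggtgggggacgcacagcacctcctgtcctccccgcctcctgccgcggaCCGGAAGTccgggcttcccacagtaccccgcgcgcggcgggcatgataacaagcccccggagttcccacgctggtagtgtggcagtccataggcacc

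The window table held 12 windows for 7 of the 8 genes. The 4 motifs were looked for on both strands, and a match describes letters only. The oestrogen-related receptor element TNAAGGTCA was found in 0 of the 12 windows and in 1.28% of all 32851 windows of this length. The NRF1 core GCGCATGCG was found in 0 of 12 and in 1.75% of all windows. The ETS core CCGGAAGT, bound by NRF2/GABP, was found in 1 of 12, at 47 to 40 bases before the Tfam start on the gene's own strand, and in 3.89% of all windows. The MEF2 site was found in 2 of 12, at 22 to 13 bases before the first Esrrg start and at 95 to 86 bases before a second Nrf1 start that no peak covered, and in 3.19% of all windows. The MEF2 pattern searched is its own reverse complement, so any match to it reads on both strands. The window of the first Esrrb start held 7 CpG dinucleotides at 60% GC and that of the internal Esrrb start held 7 at 55.3%. At Esrrg the first start had 15 CpG at 54.0% GC and the internal start 19 at 60%, while the Ppargc1a upstream start had 5 at 48.7%. Tfam had 21 at 70.3%, and the first Nrf1 start had 43 CpG at 77.0%.

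Of the 92 tested peaks, 10 rose and 2 fell in Prr14-KO at an adjusted p below 0.05, and 80 did not pass. Of all tested peaks, 2.77% rose and 4.23% fell (2049 and 3128 peaks). That balance turned to 1620 higher and 752 lower under the scaling by the authors' factors and to 2212 higher and 1409 lower without Prr14-WT replicate 4. The median log2 fold change of Prr14-KO over Prr14-WT was 0.12 over the 92 peaks and -0.01 over all tested peaks. All Prr14-KO libraries lay above all Prr14-WT libraries at 20 of the 92 peaks and below them at 7, against 9.17% and 11.2% of all tested peaks. The calls were unevenly spread, with 8 of the 10 higher peaks at Esrrg, 1 higher and 1 lower at Esrrb, and 1 higher and 1 lower at Ppargc1a. No peak passed at Esrra (1 tested), Ppargc1b (16), Perm1 (2), Tfam (5) or Nrf1 (10) in edgeR's test, where 5 of these 34 peaks had an unadjusted p below 0.05, and DESeq2 and limma-voom also called 0 of them. Of all 73896 tested peaks, 12542 had an unadjusted p below 0.05 in edgeR's test. Higher calls at the 8 genes numbered 5 without Prr14-KO replicate 4 and 4 without Prr14-WT replicate 3.

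**Figure D1:**
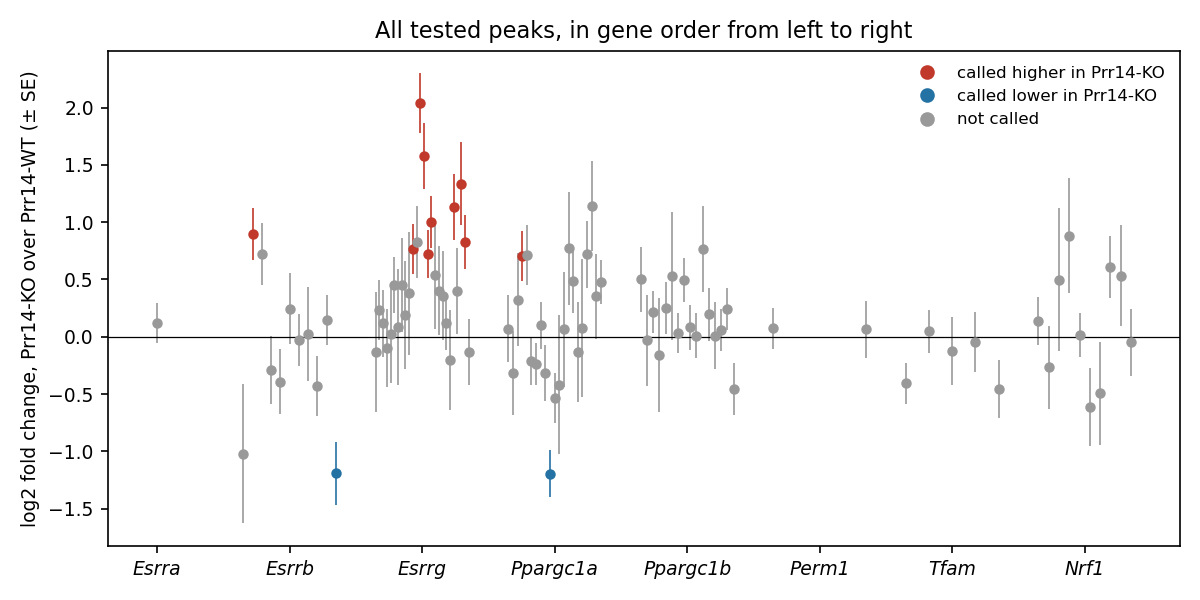
Log2 fold change of Prr14-KO over Prr14-WT (vertical axis, points with ± SE) of all 92 tested peaks, grouped by gene along the horizontal axis and drawn in gene order. The 8 red points at Esrrg reach 2.04, the blue points at Esrrb and Ppargc1a lie at -1.19, and the points of Esrra, Ppargc1b, Perm1, Tfam and Nrf1 are all grey.

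The question at the start sites was whether the promoters of the circuit differed between the genotypes. The promoter peak is the annotated peak nearest a start site within 3 kb, and across 12870 genes 0.894% of such peaks rose and 0.699% fell. Among the 8 genes, the promoter peak of Esrrb rose and the other 7 did not pass. The promoter peaks differed widely in level, with Ppargc1b and Esrra near 100 CPM and the first Esrrg start near 2 CPM, on a scale that is not divided by peak width.

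**Figure D2:**
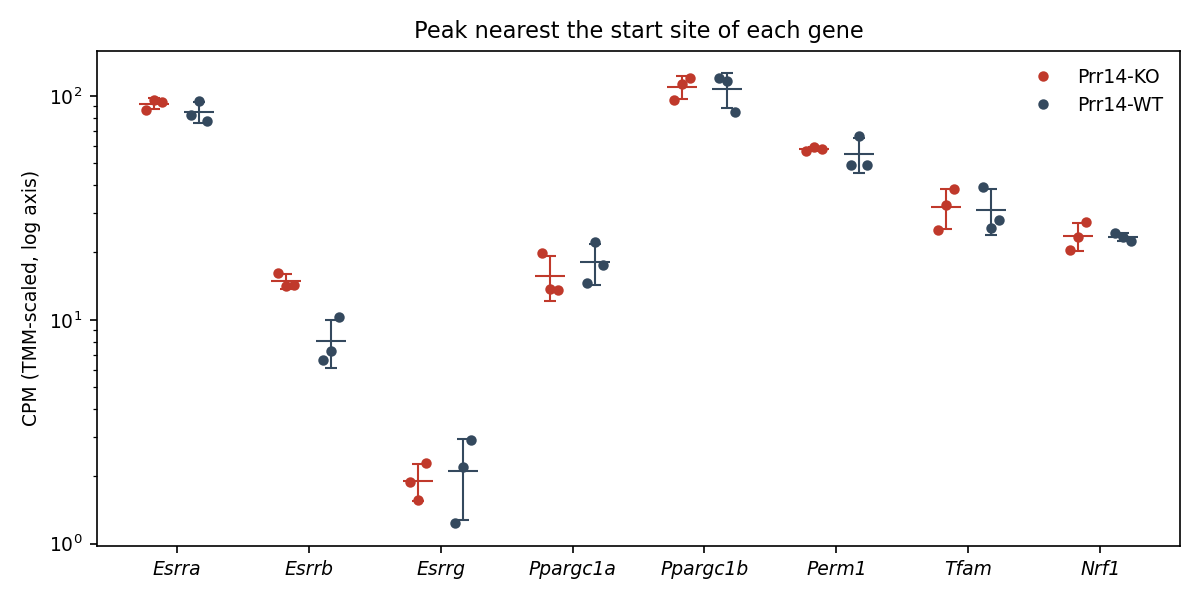
TMM-scaled CPM on a log axis of the peak nearest a start site of each gene, with points for libraries, long ticks for means and bars for SD (n = 3 each). Prr14-KO points stand left of Prr14-WT points, and the 2 sets are separate at Esrrb, where Prr14-KO lay at 14.1 to 16.2 CPM and Prr14-WT at 6.59 to 10.3 CPM.

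Esrrb (ENSMUSG00000021255) encodes ERRbeta, known best from embryonic stem cells and the inner ear. The peak over its first start (chromosome 12, 86360812 to 86361771) had 16.2, 14.1 and 14.3 CPM in Prr14-KO, against 6.59, 7.27 and 10.3 CPM in Prr14-WT. The lowest Prr14-KO library thus lay above the highest Prr14-WT library. The log2 fold change was 0.90 (SE 0.23, adjusted p = 0.00286). This peak also held the annotated start of Gm40483, so signal of the 2 start sites could not be separated. At the internal start, 60.3 kb further on (86421164 to 86421738), the values were 3.03, 5.26 and 6.22 CPM in Prr14-KO and 5.66, 6.81 and 6.71 CPM in Prr14-WT, which overlap. That log2 fold change was -0.39 (SE 0.28, adjusted p = 0.545).

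The ratio of counts at the first start to counts at the internal start does not depend on library scaling. This ratio was 5.34, 2.69 and 2.29 in Prr14-KO and 1.16, 1.07 and 1.53 in Prr14-WT, without overlap. It reuses the counts of the peak already called higher, and is a description only. Prr14-KO replicate 4 stood above the others in this ratio, and its internal start had the lowest level of the 6 libraries, 3.03 CPM. A second Esrrb peak went the other way. An intronic peak 152.7 kb from the first start (86513517 to 86514189) fell to 3.76, 4.60 and 3.48 CPM in Prr14-KO, against 6.59, 9.29 and 11.5 CPM in Prr14-WT. Here every Prr14-KO library lay below every Prr14-WT library, with a log2 fold change (± SE) of -1.19 ± 0.27 (adjusted p = 6.04e-04). Under the scaling by the authors' factors it missed the threshold (adjusted p = 0.0612). The strongest Esrrb peak, at 86498418, had 14.3, 12.4 and 14.1 CPM in Prr14-KO and 13.0, 14.6 and 8.95 CPM in Prr14-WT and gave 0.15 (SE 0.22). The remaining 7 tested Esrrb peaks did not pass.

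By shape over the 6 libraries, the promoters nearest to that of Esrrb among 12869 others were those of Ldhb, which encodes the heart-type lactate dehydrogenase subunit, of Gm26661 and of Agrp. Their Euclidean distances of centred log2(CPM + 0.5) values were 0.278, 0.281 and 0.302. Because they were picked by this distance, fold changes like that of Esrrb follow from the choice and are a description only. The Ldhb promoter peak averaged 28.2 ± 3.53 CPM in Prr14-KO and 15.0 ± 3.65 CPM in Prr14-WT (SD, n = 3 each), with a log2 fold change of 0.92. Gm26661 gave 0.85 and Agrp 0.85, the last without passing (adjusted p = 0.0590).

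Esrrg (ENSMUSG00000026610) encodes ERRgamma, which in muscle is most abundant in oxidative fibres and drives genes of aerobic metabolism and blood vessel growth. It spans 606376 bases on chromosome 1 and held 27 peaks, of which 26 were tested. In the tested set 8 rose and 0 fell, 22 had a positive log2 fold change, and the median was 0.40. Every Prr14-KO library lay above every Prr14-WT library at 9 of the 26 peaks, and at 0 peaks below. Of all 73896 tested peaks, 2.77% rose, 4.23% fell and 36029 were positive. The libraries were separate with Prr14-KO above at 9.17% of all tested peaks and with Prr14-KO below at 11.2%. All 8 called peaks were intronic, and none lay within 3 kb of an annotated start.

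The largest log2 fold change of the 92 tested peaks was in an intronic peak 299.2 kb after the first start (187907680 to 187908344). It had 16.1, 14.4 and 11.2 CPM in Prr14-KO, against 2.78, 2.67 and 4.87 CPM in Prr14-WT, with a fitted fold of 4.11. The groups were far apart, the lowest Prr14-KO value being above 2 times the highest Prr14-WT value. The log2 fold change was 2.04 (SE 0.26, adjusted p = 6.83e-12), and over 13 alternatives it ran between 1.91 and 2.40. The neighbouring peak at 302.3 kb (187910806 to 187911409) had 11.6, 7.56 and 7.87 CPM in Prr14-KO and 1.95, 2.85 and 4.34 CPM in Prr14-WT. It too showed no overlap, with a log2 fold change (± SE) of 1.58 ± 0.29 (adjusted p = 5.51e-06).

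A peak at 329.8 kb (187937888 to 187939374) had 19.7, 16.4 and 11.1 CPM in Prr14-KO and 7.20, 7.82 and 8.56 CPM in Prr14-WT. The 3 Prr14-WT values were close together, while Prr14-KO replicate 7 was nearest to them. Its log2 fold change was 1.00 (SE 0.23, adjusted p = 5.34e-04). Beyond the internal start, a peak at 449.1 kb (188057463 to 188058409) had 9.93, 7.07 and 6.41 CPM in Prr14-KO and 2.57, 2.67 and 5.66 CPM in Prr14-WT. Prr14-WT replicate 8 came close to the Prr14-KO libraries without reaching them, and the log2 fold change was 1.13 (SE 0.29, adjusted p = 0.00309). This call was lost without Prr14-KO replicate 4 (adjusted p = 0.103), Prr14-WT replicate 3 (0.0621) or Prr14-WT replicate 4 (0.0537).

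The other 4 called Esrrg peaks, at 228.0, 310.4, 485.2 and 496.6 kb, had log2 fold changes of 0.77, 0.72, 1.34 and 0.83, with adjusted p-values of 0.00990, 0.0134, 0.00643 and 0.00943. None of the 4 overlapped between the groups. The peak at 310.4 kb was the strongest of the gene, with 20.6, 22.4 and 16.4 CPM in Prr14-KO and 6.17, 14.5 and 15.5 CPM in Prr14-WT. Its nearest libraries almost met, and without Prr14-WT replicate 3, the low one, its log2 fold change was 0.42 (adjusted p = 0.402). All 4 lost their call without Prr14-WT replicate 3, with adjusted p-values up to that one, and 3 of the 4 without Prr14-KO replicate 4 while the peak at 496.6 kb lost it without Prr14-KO replicate 5 (adjusted p = 0.0679), as did the peak at 310.4 kb (0.154). The number of Esrrg peaks called higher was 4 without Prr14-KO replicate 4 and 3 without Prr14-WT replicate 3, 6 under the authors' factors and 7 with DESeq2. The peak at 228.0 kb was lost under the authors' factors (adjusted p = 0.0636), and that at 310.4 kb under them (0.0743) and with DESeq2 (0.101). In the authors' deposited table, 7 of these 8 peaks had an adjusted p below 0.05.

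**Figure D3:**
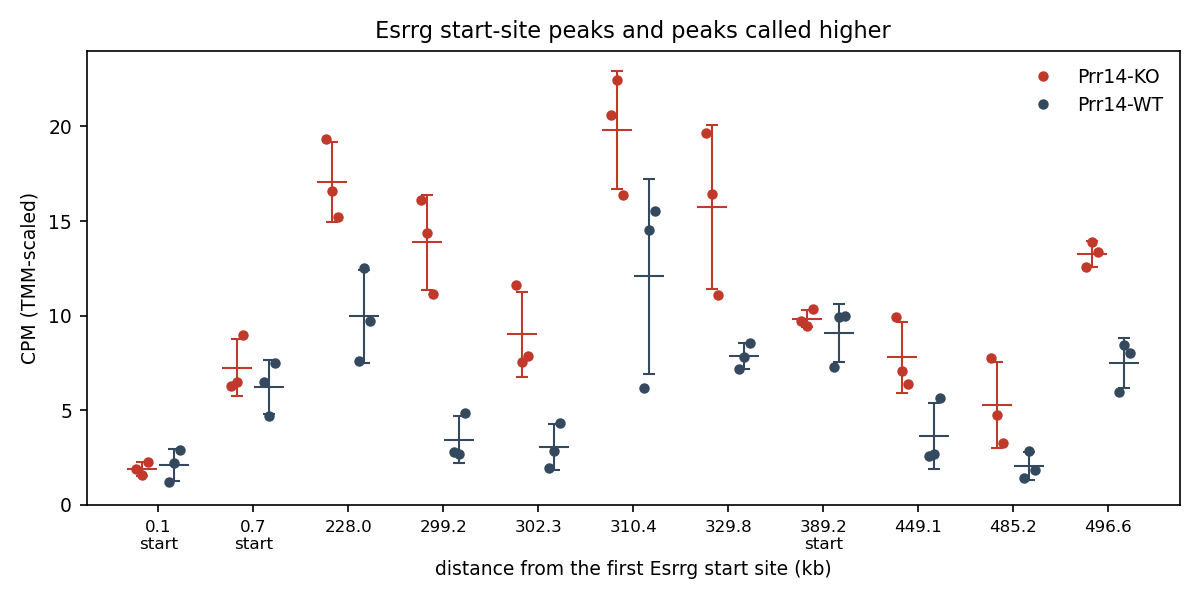
TMM-scaled CPM (vertical axis, from 0) of the 3 Esrrg peaks at start sites and the 8 Esrrg peaks called higher, placed by distance from the first start in kb, with points for libraries, long ticks for means and bars for SD (n = 3 each). Prr14-KO stands left of Prr14-WT, and the points overlap at the 3 start-site peaks and are separate at the other 8.

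The 3 Esrrg peaks classed at start sites showed no such difference. RefSeq also lists Esrrg starts at 187651758 and 187652241, whose windows no peak overlapped, so accessibility at them was not measured. The peaks beside them, at 187650354 and 187652487, are classed as intronic. They gave log2 fold changes of -0.10 (SE 0.34, adjusted p = 0.939) and 0.03 (SE 0.43, adjusted p = 0.989). The peak over the first start (187608702 to 187609008), whose window carries the MEF2 match printed above, had 1.88, 1.56 and 2.29 CPM in Prr14-KO and 1.23, 2.21 and 2.90 CPM in Prr14-WT. These overlap, at a level of 18 to 25 counts in Prr14-KO libraries and 12 to 24 counts in Prr14-WT libraries, and the log2 fold change was -0.13 (SE 0.52, adjusted p = 0.947). The adjoining peak at 187609038 gave 0.23 (SE 0.26, adjusted p = 0.753). Over the internal start (187997609 to 187998390) the values were 9.72, 9.45 and 10.3 CPM in Prr14-KO and 7.31, 9.94 and 10.004 CPM in Prr14-WT, which overlap, with a log2 fold change (± SE) of 0.12 ± 0.24 (adjusted p = 0.882).

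Along the gene, the differences lay on both sides of the internal start, which is at 389.1 kb. Of 7 peaks between 36.6 and 132.3 kb after the first start, none passed in edgeR's test and their median log2 fold change was 0.12. Of 10 peaks between 212.4 and 365.8 kb, before the internal start, 5 rose, all 10 were positive, and the median was 0.74. Of 6 peaks between 409.5 and 509.6 kb, after the internal start, 3 rose and the median was 0.61. These stretches were divided by the start sites and by the gap between peaks after the values had been seen, and they are a description.

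**Figure D4:**
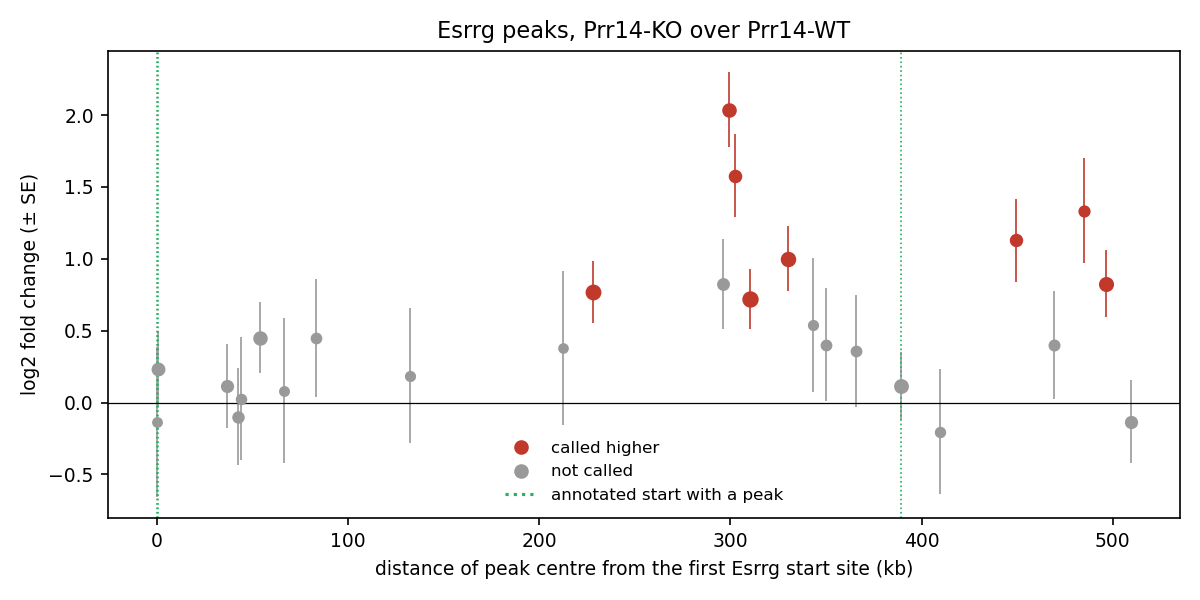
Log2 fold change of Prr14-KO over Prr14-WT (vertical axis, points with ± SE) against the distance of a peak's centre from the first Esrrg start in kb, with point size growing with mean CPM and dotted lines at annotated starts with a peak. The peaks within 132.3 kb of the first start are grey and below 0.5, and the red points, called higher, lie between 228.0 and 496.6 kb.

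Counts outside the start-site peaks divided by counts at them, a ratio free of library scaling, were 10.2, 9.19 and 6.58 in Prr14-KO and 5.18, 6.28 and 5.63 in Prr14-WT. The groups did not overlap, although Prr14-KO replicate 7 lay near Prr14-WT replicate 4. The counts outside the start-site peaks include those of the called peaks, so this ratio is a description only. When counts were summed over all peaks of a gene and tested across 15915 genes, 1.80% of genes rose and 2.99% fell. Esrrg summed to 207, 177 and 157 CPM in Prr14-KO, against 90.2, 123 and 141 CPM in Prr14-WT. The highest values were in Prr14-KO replicate 4 and the lowest in Prr14-WT replicate 3, and the groups did not overlap. The log2 fold change of the sum was 0.61 (SE 0.14, adjusted p = 0.0144). It did not pass without Prr14-KO replicate 4 (0.51, adjusted p = 0.115), without Prr14-KO replicate 5 (0.63, adjusted p = 0.0672) or without Prr14-WT replicate 3 (0.45, adjusted p = 0.114). Scaled by the authors' factors it was 0.84, which did not pass either (adjusted p = 0.156).

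ERRgamma is tied to oxidative fibres, so markers of fibre types are given beside these values. Of 6 slow fibre markers with a tested promoter peak, Tnnc1 rose (log2 fold change 1.14, adjusted p = 0.00464) and the others did not pass. Myh7 gave 0.78, Atp2a2 0.26, Tnnt1 0.12, Casq2 -0.007 and Tnni1 -0.18. The 6 promoters summed to 43.3 to 47.3 CPM in Prr14-KO and 37.3 to 40.1 CPM in Prr14-WT, without overlap. Tnnc1 alone averaged 7.13 CPM in Prr14-KO and 3.21 CPM in Prr14-WT. Of 9 fast fibre markers, Myh4 fell (-1.08, adjusted p = 3.95e-07), and the 9 summed to 1105 to 1171 CPM in Prr14-KO and 975 to 1558 CPM in Prr14-WT. Over all their peaks, the slow markers had 3 higher and 0 lower of 27, 1 each at Myl2, Tnni1 and Tnnc1. The fast markers had 1 higher (at Pvalb) and 12 lower of 39, against 2.77% higher and 4.23% lower of all tested peaks. Of the 12 lower peaks, 7 were at Myh4, 2 at Myh1 and 1 each at Myh2, Actn3 and Mylpf. Tnnt3, Tnni2, Tnnc2 and Atp2a1 had 0 lower peaks. Myl2, Myl3 and Myh2 had no tested promoter peak. The part of fibre type in the Esrrg differences was not tested.

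Ppargc1a (ENSMUSG00000029167) encodes PGC-1alpha and has an upstream start whose transcripts respond to exercise, besides the canonical one. The peak over the upstream start (chromosome 5, 51567513 to 51568728, the window printed above) had 19.9, 13.7 and 13.5 CPM in Prr14-KO and 14.6, 22.2 and 17.5 CPM in Prr14-WT. The peak at the canonical start (51551962 to 51554249) had 29.6, 32.9 and 27.3 CPM in Prr14-KO and 37.2, 40.6 and 27.8 CPM in Prr14-WT. Both overlap between the groups, with log2 fold changes of -0.21 (SE 0.21, adjusted p = 0.697) and -0.24 (SE 0.19, adjusted p = 0.592). Counts at the upstream start were 0.671, 0.418 and 0.497 of those at the canonical start in Prr14-KO and 0.392, 0.546 and 0.630 in Prr14-WT, also overlapping.

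Away from the start sites, 2 of the 21 tested Ppargc1a peaks passed, in opposite directions. An intronic peak 19152 bases after the canonical start (51534133 to 51535304) fell to 13.7, 9.29 and 11.4 CPM in Prr14-KO, against 23.7, 34.9 and 19.6 CPM in Prr14-WT. All Prr14-KO libraries were below all Prr14-WT libraries, and Prr14-WT replicate 4 was the highest. The log2 fold change was -1.19 (SE 0.21, adjusted p = 1.06e-06), and it passed in all 13 alternatives computed for this peak, with adjusted p-values up to 0.0384. Relative to the canonical start, its counts were 0.463, 0.283 and 0.419 in Prr14-KO and 0.635, 0.859 and 0.706 in Prr14-WT, without overlap. The peak was picked for this ratio by its lower call, so the separation largely follows from the choice and is a description only.

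A peak at -28056 bases from the upstream start, thus before it (51595351 to 51596213), had 18.1, 16.7 and 16.0 CPM in Prr14-KO, against 9.57, 10.2 and 11.5 CPM in Prr14-WT. The libraries agreed closely within each group and did not overlap, with a log2 fold change (± SE) of 0.70 ± 0.22 (adjusted p = 0.0220). Its deposited class is intergenic, while the RefSeq span of Ppargc1a (51454249 to 52115853), which includes a far upstream start, contains it. The call was lost without Prr14-KO replicate 4 (adjusted p = 0.122), Prr14-KO replicate 5 (0.0811) or Prr14-WT replicate 3 (0.104), and under the authors' factors (0.0842). The neighbouring peak at 51591538 gave 0.71 on the log2 scale (SE 0.26, adjusted p = 0.0823), outside the threshold. A further peak, 430115 bases beyond the canonical start at 51123584, gave 1.14 (SE 0.39, adjusted p = 0.0506) and was called in the authors' deposited table. These 2 peaks were the nearest outside the threshold, and the nearest inside were the peak at 51595351 and the Esrrg peak at 187918633 (adjusted p = 0.0134). Summed over its peaks, Ppargc1a gave a log2 fold change (± SE) of -0.03 ± 0.12 (adjusted p = 0.951).

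**Figure D5:**
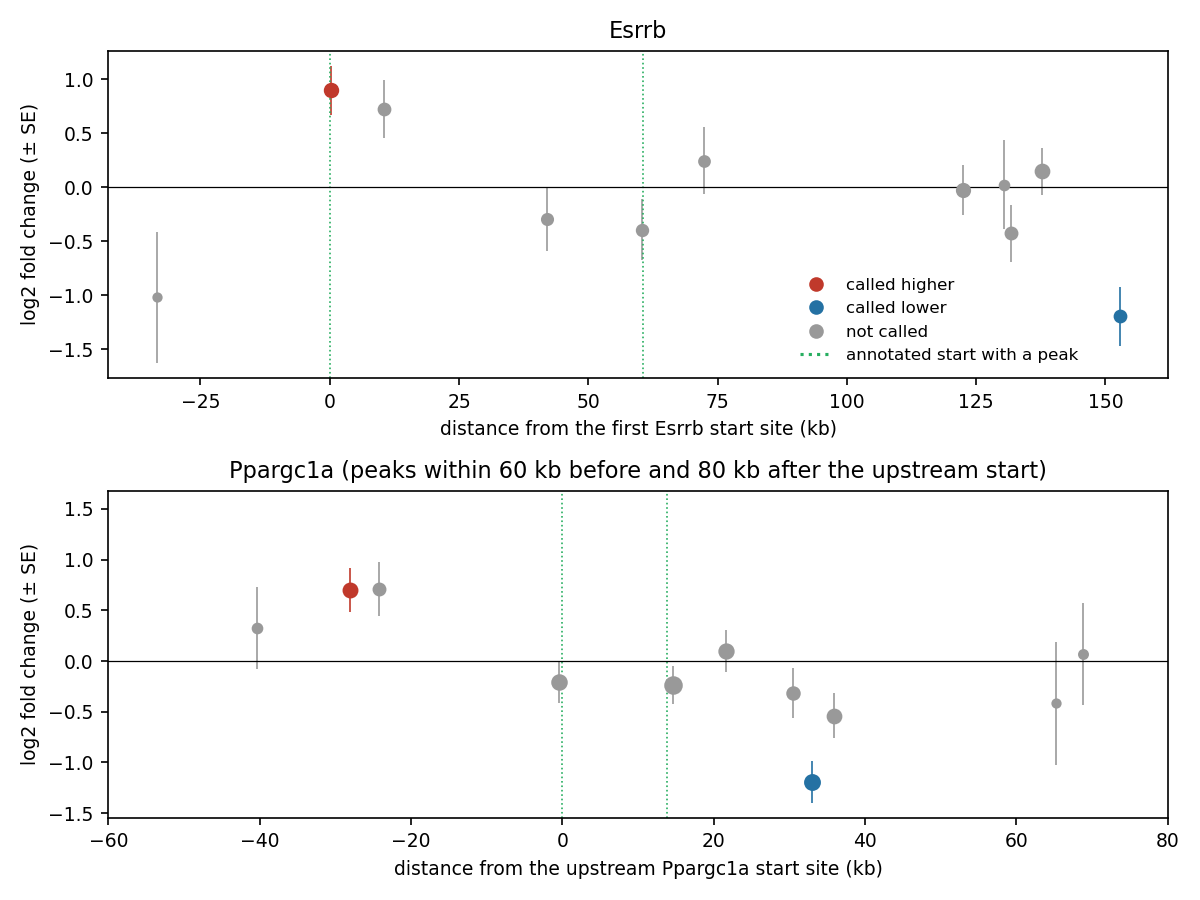
Log2 fold change of Prr14-KO over Prr14-WT (vertical axes, points with ± SE) against distance in kb from the first Esrrb start (top) and from the upstream Ppargc1a start (bottom), with point size growing with mean CPM and dotted lines at annotated starts with a peak. At Esrrb the red point lies at the first start (0.90) and the blue one at 152.7 kb (-1.19), and at Ppargc1a the red point lies before both starts (0.70) and the blue one after both (-1.19).

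Esrra (ENSMUSG00000024955), which encodes ERRalpha, the most widely expressed receptor of the family, held a single peak. It covered the promoter (chromosome 19, 6920323 to 6922930) and had 86.8, 96.5 and 94.2 CPM in Prr14-KO and 82.5, 95.3 and 77.1 CPM in Prr14-WT. The groups overlap, with a log2 fold change (± SE) of 0.12 ± 0.17 (adjusted p = 0.819). The promoter peak of Ppargc1b (ENSMUSG00000033871; chromosome 18, 61397119 to 61400421) had 95.6, 113.6 and 120.2 CPM in Prr14-KO and 120.0, 116.7 and 85.3 CPM in Prr14-WT, and gave 0.03 (SE 0.17, adjusted p = 0.963). Of its 16 tested peaks 13 were positive, with log2 fold changes from -0.45 to 0.77, and 3 had an unadjusted p below 0.05. Of all 73896 tested peaks, 36029 were positive and 12542 had an unadjusted p below 0.05.

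Perm1 (ENSMUSG00000078486) had 56.8, 59.3 and 57.9 CPM at its promoter (chromosome 4, 156215330 to 156217874) in Prr14-KO and 49.4, 66.4 and 49.4 CPM in Prr14-WT. The Prr14-KO values lay within the range of the Prr14-WT values, and the log2 fold change was 0.07 (SE 0.18, adjusted p = 0.909). Tfam (ENSMUSG00000003923) had a promoter peak (chromosome 10, 71237487 to 71238669), whose window holds the ETS match, with 25.3, 32.6 and 38.4 CPM in Prr14-KO and 39.3, 25.9 and 28.0 CPM in Prr14-WT. These overlap, at a log2 fold change (± SE) of 0.05 ± 0.19 (adjusted p = 0.949). The strongest peak annotated to Tfam was an intergenic one at -12509 bases from the start (71248845 to 71252733). It had 47.2, 42.6 and 38.3 CPM in Prr14-KO and 50.7, 72.4 and 46.2 CPM in Prr14-WT, a difference of -0.41 on the log2 scale (SE 0.18) with an adjusted p of 0.185. The promoter of Nrf1 (ENSMUSG00000058440; chromosome 6, 30047184 to 30049421) had 20.6, 23.3 and 27.3 CPM in Prr14-KO and 24.5, 23.5 and 22.5 CPM in Prr14-WT, with a log2 fold change (± SE) of 0.02 ± 0.19 (adjusted p = 0.985). The 10 tested Nrf1 peaks ran from -0.61 to 0.88 without a call.

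Summed over all their peaks, the 7 genes other than Esrrg did not pass. The sums gave log2 fold changes of 0.11 for Esrra, 0.01 for Esrrb, 0.11 for Ppargc1b, 0.06 for Perm1, -0.24 for Tfam and 0.03 for Nrf1, beside the -0.03 of Ppargc1a. The largest of these in size, Tfam, had an SE of 0.11 and an adjusted p of 0.287, with 92.3 ± 3.64 CPM in Prr14-KO and 109 ± 11.3 CPM in Prr14-WT (SD, n = 3 each). At Esrrb and Ppargc1a the sums pooled called peaks of opposite direction.

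The 12 called peaks comprised 10 intronic, 1 promoter and 1 intergenic peak by their deposited class. Of the 10 intronic ones, 8 were at Esrrg. Of all tested peaks, 36.3% were intronic, 31.7% intergenic and 23.6% promoter peaks. The 80 tested peaks without a call comprised 39 intronic, 28 intergenic, 11 promoter, 1 exonic and 1 3′ UTR peak. Called peaks had a median width of 914 bases and a median level of 10.9 CPM, against 630.5 bases and 5.27 CPM for those without a call and 743 bases and 6.24 CPM for all tested peaks. The 2 strongest peaks of the set, at the promoters of Ppargc1b and Esrra, were not among the called ones.

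Genes around the circuit were counted from 4 lists, at their promoter peaks. Upstream regulators of PGC-1 (17 genes, among them subunits of the energy sensor AMPK, the deacetylase gene Sirt1 and the corepressor gene Ncor1) had 0 higher and 0 lower promoters in edgeR's test, a median log2 fold change of -0.04, and 2 with an unadjusted p below 0.05. Partner receptors and cofactors had 0 of 14 in either direction with a median of 0.07 and none at an unadjusted p below 0.05. Genes of mitochondrial DNA expression and upkeep had 0 of 13, with a median of 0.07 and 1 such promoter. Known targets of oestrogen-related receptors, such as Cpt1b, Pdk4, Cycs and Mb, had 0 of 22, with a median of 0.06 and 2 such promoters. The median over all promoter peaks was 0.06, and DESeq2 and limma-voom also called 0 promoters in each list. Of all 73896 tested peaks, at promoters or elsewhere, 12542 had an unadjusted p below 0.05 in edgeR's test.

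Counted over all annotated peaks, the upstream regulators had 3 higher and 19 lower of 147 peaks, the partners 2 higher and 3 lower of 157, the mitochondrial DNA genes 0 and 0 of 23 (2 at an unadjusted p below 0.05) and the target genes 5 higher and 2 lower of 100. Of all tested peaks, 2.77% were higher and 4.23% lower. The partners lay below both shares, on few calls, and the difference was not tested. Of the 19 lower peaks, 12 belonged to Nrip1, a gene named after its values had been seen, which encodes the RIP140 corepressor of oestrogen-related and other nuclear receptors. At Nrip1 12 of 41 tested peaks fell, 0 rose and the median log2 fold change was -0.59, while its promoter peak averaged 45.4 ± 10.9 CPM in Prr14-KO and 46.4 ± 10.4 CPM in Prr14-WT (SD, n = 3 each), which is -0.04 on the log2 scale (adjusted p = 0.960). Among the target genes, the higher peaks were at Mfn2 (1), Fndc5 (1), Slc25a4 (1) and Mb (2), and the lower ones at Pdk4 (1) and Mb (1).

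Other cell types were followed by the promoters of marker genes. ERRgamma is known to drive angiogenic genes in muscle, and 5 endothelial marker promoters were tested. Of these, Cldn5 rose (log2 fold change 0.71, adjusted p = 0.00594) and 4 did not pass. Across 12870 genes, 0.894% of promoter peaks rose. Kdr gave 0.19, Cdh5 -0.26, Tek -0.28 and Tie1 -0.55, and the median of the 5 was -0.26. The 5 promoters summed to 43.2 to 65.2 CPM in Prr14-KO and 38.2 to 58.6 CPM in Prr14-WT. Cldn5 alone averaged 33.5 CPM in Prr14-KO and 20.6 CPM in Prr14-WT. No marker promoter passed for smooth muscle and pericytes (4 tested), fibro-adipogenic cells (5), macrophages (1), satellite cells (3), adipocytes (2), brown adipocytes (1) or Schwann cells (2). Their summed promoter signals overlapped between the groups in each of these lists. Ptprc, Adgre1, Fcgr1 and Cd68 of the macrophage list, Adipoq and Fabp4 of the adipocyte list and Ucp1 and Elovl3 of the brown adipocyte list had no tested promoter peak, and the same held for Pecam1, Cspg4, Calcr and Sox10 of the other lists. Over all peaks, the endothelial markers had 3 higher and 1 lower of 48, the satellite cell markers 4 higher of 23 (all at Pax7), the brown adipocyte markers 2 higher of 8 (both at Cidea), the smooth muscle and pericyte markers 1 higher of 20 and Mbp of the Schwann cell list 1 higher of 12. The fibro-adipogenic, macrophage and adipocyte markers had no called peak in edgeR's test among 43, 15 and 5 tested, and 0 at an unadjusted p below 0.05. Of all tested peaks, 2.77% were higher and 4.23% lower, and the counts of these marker lists rest on few calls. The part of other cell types in the differences above was not tested.

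The authors' deposited table holds an adjusted p of their own, by which 11 of the 96 peaks were called, 10 of them among the 12 called here. By that table the Esrrb promoter had an adjusted p of 0.00372 and the Esrrg peak at 187907680 one of 4.88e-09. The Esrrb peak at 86513517 and the Esrrg peak at 187918633 were called here and not there. The median log2 fold change over all peaks in the authors' deposited table was 0.19, against -0.01 in the present fit.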

How the data were processed

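ATAC-seq of quadriceps femoris from 3 Prr14-KO and 3 Prr14-WT libraries was analysed from 1 table of the whole series. Per the submitters' processing notes, the tools were Trimmomatic, BWA, MACS2, deepTools, bedtools and DESeq2 1.6.3, and the build GRCm38, but for the role of each tool, the counting, any read shift and duplicates, it is not given in the sources used here what was done. Whole-number counts per peak and library were deposited by the authors. The authors also deposited a normalized signal, which is the count divided by 1 factor per library. The deposited table further holds the authors' log2 fold change, their p-values, a score per peak, and the annotated gene, feature class and distance to a start site; the score was not used. Gene spans and start-site windows came from RefSeq, GRCm38.p6.

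The counts were tested here with the two-sided quasi-likelihood test of edgeR 4.0.16 (glmQLFTest after glmQLFit, run under R 4.3.3, TMM factors, filterByExpr with a minimum count of 10 and a minimum total of 15), and p-values were adjusted by Benjamini-Hochberg over all 73896 tested peaks. Where the text names no other test, an adjusted p is this one, with a threshold of 0.05. The SE of a log2 fold change was taken as its absolute value over the root of F. The common biological coefficient of variation was 0.201. Counts summed per gene were fitted the same way. Counts and levels carry counting error on top of the spread between libraries. Alternatives were other library scalings, other filters, DESeq2 1.42.0, limma-voom (limma 3.58.1), a stricter threshold, a 1 kb promoter window and leaving out each library. The procedure was tested on simulated data.

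The 8 genes, the pathway lists and the marker lists were chosen with earlier results of these data known. The peaks named were the promoter peak of each gene, the strongest peak, called peaks (the 4 with the smallest p where a gene had more, with the others summarised), and peaks at the upstream Ppargc1a start; a few others are marked as chosen after their values were seen or as nearest to the threshold.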

Additional observations from a re-analysis of the deposited data

How the results depend on the processing

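Over the alternatives, the Esrrb promoter peak stayed called in all 14, with log2 fold changes of 0.79 to 1.15, and the lower Ppargc1a peak and the Esrrg peaks at 187907680, 187910806 and 187937888 stayed called in all 13 computed for each. Of the 12 called peaks, 11 remained with DESeq2, 12 with limma-voom, 8 with the authors' factors, 7 without Prr14-KO replicate 4 and 6 without Prr14-WT replicate 3. The authors' factors ran only from 0.977 (Prr14-KO replicate 7) to 1.035 (Prr14-KO replicate 5). Counts in peaks ran from 7608514 (Prr14-WT replicate 8) to 12061822 (Prr14-KO replicate 5), so these factors left most of the difference in depth in place. The authors' factors moved the median of all peaks to 0.19 and the share of higher calls to 68.3%, against 39.6% with TMM. With them, all calls came to 2372 (752 lower), lower calls at the 8 genes to 1 and at Esrrb to 0, the Esrrg sum to 0.84 (adjusted p = 0.156), the first Esrrg start to 0.090 and the Ppargc1a sum to 0.17. In the authors' deposited table, 579 peaks were lower, 1 at the 8 genes and 0 at Esrrb, and 2 Ppargc1a peaks were higher. At an adjusted p under 0.01, calls came to 3073, with 1124 higher and 1949 lower. Higher Ppargc1a peaks numbered 2 with DESeq2 size factors, total counts or no filter, and total counts gave 1 higher Ppargc1b peak. The Ppargc1a sum was 0.0066 with DESeq2 size factors and 0.037 with total counts.

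Leaving out 1 library at a time, all calls ranged from 2470 to 5359, higher calls from 959 to 2248 and lower calls from 1409 to 3111. The fewest were found without Prr14-KO replicate 5 for all and for higher calls (1209 without Prr14-KO replicate 4, 1279 without Prr14-WT replicate 3), and without Prr14-WT replicate 4 for lower calls (1511 without Prr14-KO replicate 5, 2082 without Prr14-KO replicate 7). At the 8 genes, higher calls ranged from 4 to 13, Esrrg from 3 to 8, Ppargc1a from 0 to 4 and Ppargc1b from 0 to 1. The Esrrg sum ranged from 0.45 to 0.77. Values that were never called changed sign, with ranges of -0.069 to 0.067 for the Esrrb sum, -0.13 to 0.070 for the Ppargc1a sum, -0.031 to 0.20 for the Perm1 sum, -0.051 to 0.13 for the Nrf1 sum, -0.39 to 0.19 for the first Esrrg start, and -0.061 to 0.14, -0.077 to 0.27 and -0.072 to 0.11 for the promoters of Ppargc1b, Tfam and Nrf1. The cause of these changes was not tested. With no filter, all calls split into 2300 higher and 2866 lower. The Ppargc1b promoter has no value with a 1 kb window, because its deposited distance to the start is 1630 bases. That distance is measured from the peak's centre. The peak is 3303 bases wide and its deposited class is a promoter within 1 kb. The motif search over whole peaks was not run, as no genome was used here. No paired analysis was possible because the groups share only replicate number 4. At the first Esrrg start, with 12 to 25 counts per library, the SE of 0.52 limits what could be detected.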
